A study of Zea mays with 6 samples.

Results

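A small set of nuclear maize genes had transcripts in every library of drought-stressed transgenic leaves and almost none in drought-stressed control leaves. The set was defined by level: a deposited FPKM (fragment numbers divided by gene length and by the library's mapped fragments) of at least 5 in each of the 3 transgenic libraries, and a mean FPKM of 0.1 or less over the 3 control libraries. Of 33702 nuclear genes in the files, 32 met both conditions, out of 33953 features in all. The members were therefore chosen by the difference between the genotypes. That difference is described below and is not tested.

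Both groups were leaves of the inbred line KN5585 at the 3-leaf stage, sampled after 5 days without watering, when the soil held 9.8% water. Plants of the transgenic group carried genes for the synthesis of poly-γ-glutamic acid, a water-holding polymer of glutamate known from Bacillus bacteria. The labels call the other group control and say no more of its origin, and they give neither the promoter of the transgene nor the number of transformation events. Whether replicate libraries came from different plants is not stated, so SDs and p-values may reflect technical spread alone. Watered plants were not analysed here, so no value below describes a response to drought.

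Many plant genes are transcribed in a single organ, at a single stage or under a single stress, and are silent elsewhere. A silent gene in a plant genome is often held in that state by DNA methylation or by methylation of histones at its promoter, and silence of this kind is commonly recorded as an expression value at or near 0. In bulk leaf RNA a low value can come from few cells that transcribe a gene or from little RNA in each cell, and these cannot be told apart. The nuclear IDs are not paired with names in the files, and 0 of 33702 had a match in the reference gene table of Zea mays, so the products of the 32 members are not known here. Members are named by their rank in mean FPKM over the transgenic libraries, with 2 of them also given by ID.

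Libraries of the same genotype were much alike, and the genotypes were far apart. Across features averaging at least 1 FPKM, log2 values correlated with a Pearson r of 0.972 to 0.976 among control and 0.986 to 0.989 among transgenic libraries. Between genotypes r was 0.693 to 0.708. These coefficients are across genes, which are not independent replicates. The estimated depth of the libraries spanned 1.07-fold, in a search that could not find large differences. The nuclear marker genes of leaf tissue could not be looked up without names. The plastid gene psbA (ZemaCp002), which encodes the D1 protein of photosystem II and is abundant in green leaves, lay between 153 and 166 FPKM in the control libraries and between 0.41 and 1.85 FPKM in the transgenic ones. This lower reading was not typical of plastid features. The kit used was one for mRNA, and how evenly it captured plastid transcripts was not tested. Plastid FPKM are therefore not taken here as amounts of plastid RNA in the leaf. On the log2(FPKM + 1) scale, transgenic minus control, psbA had the lowest value of the plastid features averaging at least 1 FPKM, at -6.19. The others ranged from -2.06 (ZemaCp053) to 4.93 (ZemaCp030), and more of them were higher than lower in transgenic leaves. The part of such wide differences between genotypes in the values of the members was not tested.

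The most abundant member, Zm00001d046001, was listed at 0 in all 3 control libraries. It had 113.56, 289.93 and 54.33 FPKM in transgenic replicates 1, 2 and 3. The genotypes did not overlap, but the transgenic libraries differed among themselves by 5.34-fold. Its mean was 153 ± 123 FPKM (SD, n = 3), which placed it at rank 1061 among all nuclear genes in transgenic leaves.

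The second member, Zm00001d018611, was listed at 0 in control replicates 1 and 2 and at 0.10 FPKM in control replicate 3. In the transgenic libraries it had 42.27, 37.85 and 43.83 FPKM, with a mean of 41.3 ± 3.10 FPKM. The transgenic libraries were close together, in contrast to the first member. Beyond the first member the set held no transcript above 50 FPKM in the mean, and its second member stood at rank 4116 among nuclear genes.

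Ranks 3 to 6 formed the rest of the upper part of the set, at mean levels of 24.3 to 36.6 FPKM. The third member had 36.71, 32.67 and 40.35 FPKM in the transgenic libraries and 0.17, 0 and 0.08 FPKM in the control libraries. The fourth had 31.07, 32.65 and 31.27 FPKM against 0, 0.24 and 0 FPKM. The sixth had 23.11, 27.03 and 22.71 FPKM against 0, 0 and 0.16 FPKM. The control values above 0 of these 3 genes were spread over replicates 1, 2 and 3.

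The other 26 members, from rank 7 down, had mean transgenic levels of 5.70 to 18.6 FPKM. Over the whole set 13 members averaged under 10 FPKM, 13 had 10 to 20 FPKM, 5 had 20 to 50 FPKM and 1 had more. The median member stood at 10.8 FPKM. Among the 14222 nuclear genes with at least 5 FPKM in each transgenic library the median was 21.9 FPKM, and 26 of the 32 members lay below it. None of the members was among the 100 most abundant nuclear genes of transgenic leaves.

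**Figure D1:**
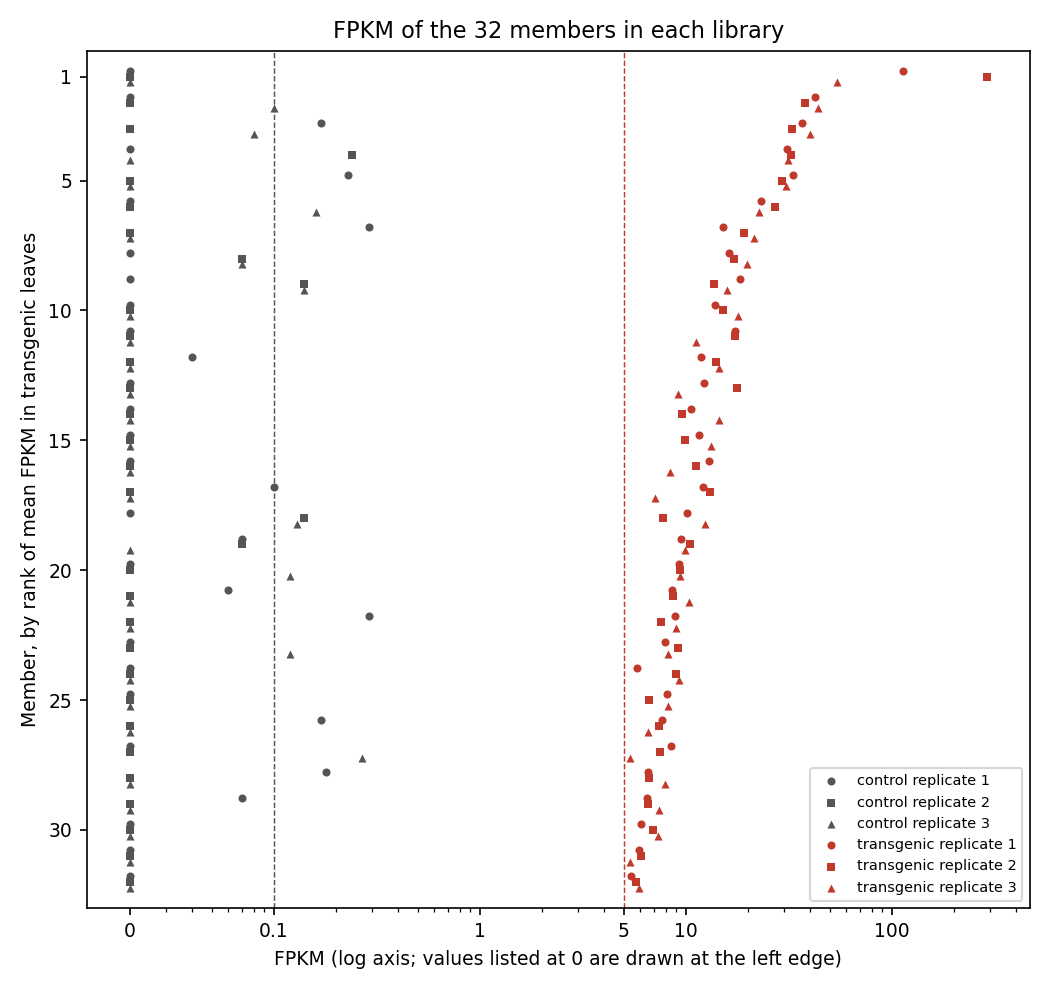
FPKM of each of the 32 members (rows, ranked by mean FPKM in transgenic leaves) in each library, on a log axis with values listed at 0 drawn at the left. Grey symbols are the 3 control and red symbols the 3 transgenic libraries; dashed lines mark the thresholds of 0.1 and 5 FPKM. Control values reach at most 0.29 FPKM, and the first member has the widest spread of red symbols, from 54.33 to 289.93 FPKM.

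Summed over the members, transcripts made up 0.0447%, 0.0589% and 0.0403% of all FPKM in transgenic replicates 1, 2 and 3. The first member alone produced most of the difference between these sums. Without it the other 31 members summed to 434.16, 433.64 and 444.71 FPKM, or 438 ± 6.25 FPKM, which is 0.0354%, 0.0353% and 0.0359% of the total. The members thus contributed a nearly constant, very small part of the transcriptome of each transgenic library once the first was set aside. In the control libraries all 32 members together summed to 1.67, 0.66 and 1.19 FPKM.

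All 32 members passed the minimum mean FPKM of 1 for the comparison across features, and by the choice of the rule every transgenic value of a member lay above every control value. Such a separation was seen in 28.0% of the 22200 features tested. Each of the 32 was also called higher in transgenic leaves (limma, Benjamini-Hochberg adjusted over all tested features), where 27.0% of all tested features were. Since the rule used the same contrast, these counts carry no information on the members. The difference on the log2(FPKM + 1) scale, transgenic minus control, was 6.94 (SE 0.49) for Zm00001d046001 and 5.36 (SE 0.15) for Zm00001d018611. It ranged from 2.74 to 6.94 over the members with a median of 3.51, beside a median of -0.31 over all tested features. These values depend on the added 1 and are not the log2 fold change of the FPKM. With 0.1 added in its place they were 10.25 for Zm00001d046001, 8.36 for Zm00001d018611 and 6.43 for the median over the members.

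**Figure D2:**
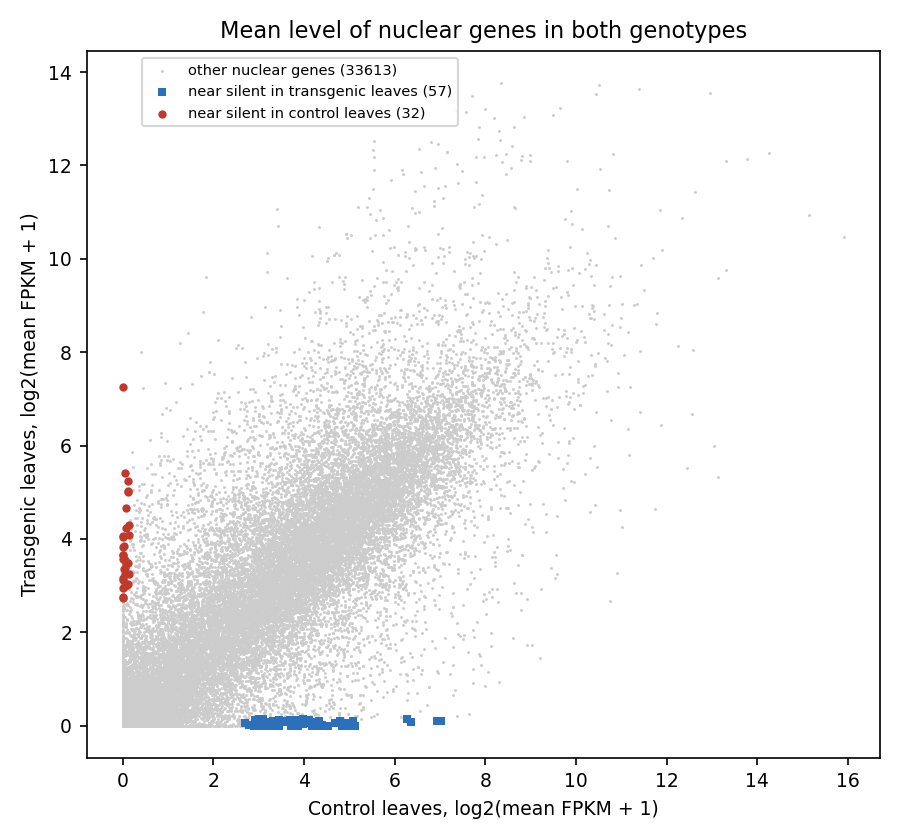
Mean level of nuclear genes in control (x axis) and transgenic leaves (y axis), both as log2(mean FPKM + 1) over 3 libraries. The 32 members (red) lie by construction along the left edge and the 57 genes near silent in transgenic leaves (blue) along the lower edge, with 33613 other genes in grey.

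Silence in control leaves was mostly recorded as an exact 0. Of the 96 control values of the members, 71 were listed at 0 and 25 were above 0, with a median of 0.13 and a highest value of 0.29 FPKM among the latter. The number of members listed at 0 in all 3 control libraries was 12, while 15 were above 0 in 1 library, 5 in 2 libraries and 0 in all 3. Control replicate 1 had values above 0 for 11 members, replicate 2 for 5 and replicate 3 for 9. Over all 6278 nuclear genes with a mean control FPKM of 0.1 or less, the same order held, with 15.7%, 11.0% and 12.8% above 0 in replicates 1, 2 and 3.

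A complete absence of control signal was less common among the members than among near-silent genes in general. It applied to 37.5% of the members, to 67.3% of all 6278 near-silent genes, and to 59.7% of the 273 near-silent genes with a mean of at least 1 FPKM in transgenic leaves that were not members. The 6278 include 2031 genes listed at 0 in all 6 libraries, which could not be members and raise the share of 67.3%. These shares are given as a description, since control values chose the members. Gene length sets how small a listed value can be, and lengths were not analysed here.

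The low values also give a lower limit for the number of fragments behind a transgenic value, on the assumption that fragments were counted whole. The way of counting is not stated, and fractions of shared fragments would void the limit. Under that assumption a value above 0 stands for at least 1 fragment. The limit also rests on the estimated relative depths of the libraries, from a search that could not find large differences. For the 20 members with a control value above 0, the lowest of the 3 transgenic libraries then held at least 18 to at least 360 fragments, with a median of 87.5. The lowest limit belonged to the member ranked 27 and the highest to the third member. For the 12 members without any control value no such limit could be set.

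The members differed in how steady they were between transgenic libraries. The steadiest, ranked 20, had 9.27, 9.41 and 9.41 FPKM, a coefficient of variation of 0.863%. The first member was at the other end with 80.3%. Among the rest the widest spreads were those of the member ranked 13, with 12.30, 17.75 and 9.23 FPKM, and of the member ranked 17, with 12.15, 13.11 and 7.08 FPKM. The median over the 32 was 10.6%, against 8.22% over 13006 other nuclear genes with at least 5 FPKM in each transgenic library and a mean in the same range.

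The spread was also compared within classes of level. Of 13 members with a mean of 10 to 20 FPKM, 12 varied more than the median of the 3801 other genes in that class, and their median coefficient was 17.1% against 9.57%. Of 13 members with a mean of 5 to 10 FPKM, 5 did so, with a median of 8.78% against 10.7%. Of 6 members with a mean of 20 FPKM or more, 4 did so, with a median of 8.67% against 6.73%. A highest library at least 1.5 times the lowest was seen in 6 of the 13 members at 10 to 20 FPKM (46.2%) and in 9.23% of the other genes there. At 5 to 10 FPKM the shares were 15.4% and 10.8%. At 20 FPKM or more they were 16.7%, which is 1 of 6 members, and 2.24%. Genes of one set are not replicates, so these differences carry no test. Gene lengths were not analysed, so the classes match in FPKM and not in fragment numbers.

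The 12 members listed at 0 in all control libraries varied with a median coefficient of 17.9%, and the 20 others with 10.1%, at median levels of 11.2 and 10.5 FPKM. A ratio of at least 1.5 between libraries occurred in 6 of the 12 and in 3 of the 20. Similar FPKM need not mean similar fragment numbers, since gene lengths were not analysed here. No fragment limit could be set for the 12, and the part of counting error in their spread was not tested. The steady genes of the fully silent kind were at the foot of the ranking. The member ranked 32 had 5.43, 5.75 and 5.93 FPKM and the member ranked 31 had 5.94, 6.10 and 5.37 FPKM.

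**Figure D3:**
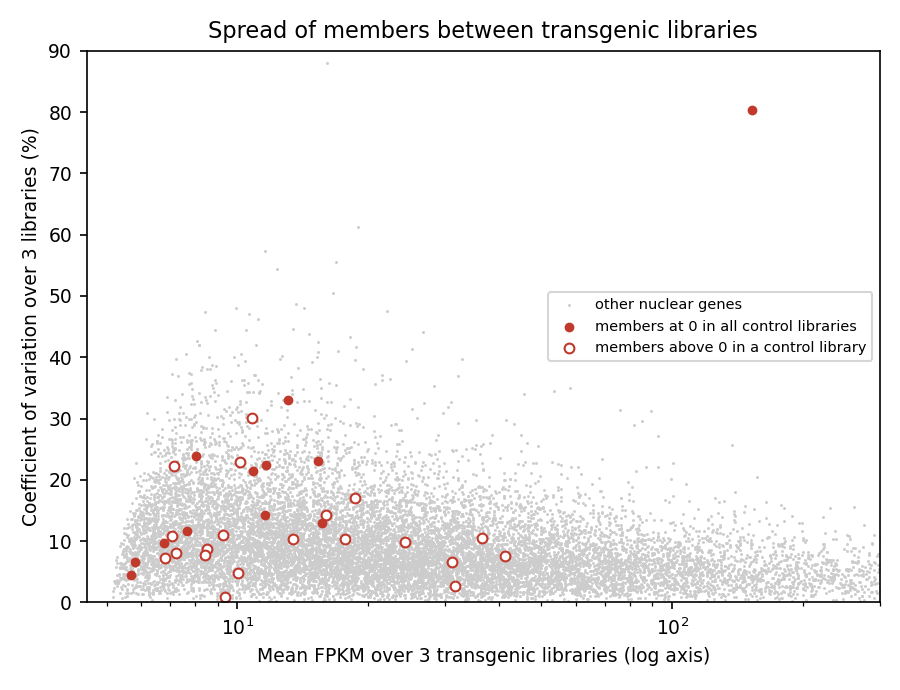
Coefficient of variation over the 3 transgenic libraries (y axis, %) against mean FPKM (x axis, log scale, drawn up to 300) for the members (red, filled where listed at 0 in all control libraries, open otherwise) and for other nuclear genes with at least 5 FPKM in each transgenic library (grey). The first member stands alone at 80.3% and a mean of 153 FPKM.

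The spread of the first member had no counterpart at its level. Of 1050 other nuclear genes with a mean of 100 to 250 FPKM in transgenic leaves, none had as large a ratio of the highest to the lowest library. The median ratio there was 1.10 and the highest 1.70, compared with 5.34 for this gene. Of the 14222 nuclear genes with at least 5 FPKM in each transgenic library, 5 had a ratio of at least 3, and this gene was 1 of them. In 3 of these 5 genes, itself included, replicate 2 was highest and replicate 3 lowest.

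Of the other 31 members, 4 followed that order, those ranked 6, 13, 17 and 31. Over all 32, the first included, replicate 3 was the highest transgenic library for 17 members (53.1%), replicate 2 for 9 and replicate 1 for 6. In the 13006 other genes of the same range replicate 3 was the highest in 29.9% and the lowest in 44.8%. It was the lowest library for 9 of the members (28.1%). Across members, log2 FPKM correlated with a Pearson r of 0.959 between replicates 1 and 2, 0.915 between 1 and 3 and 0.868 between 2 and 3. Without the first member the values were 0.956, 0.908 and 0.895 over 31 genes. These coefficients are across genes that share their libraries.

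To read the pattern in a library that had no part in the choice, the rule was applied to 5 libraries and the selected genes were looked up in the sixth. Without transgenic replicate 1 the rule picked 34 genes, of which 32 had at least 5 FPKM in that library. Without replicate 2 it was 32 of 38, and without replicate 3 it was 32 of 36. The 32 in each count were the members by definition, so only the number picked could differ. Replicates may come from the same plants, so the left-out library was not known to be independent of the others. The lowest values in the left-out libraries were 3.20, 1.97 and 3.30 FPKM, so that each selected gene was well above 0 in the transgenic library not used. Over all 6278 genes near silent in control leaves, 0.749%, 0.653% and 0.733% reached 5 FPKM in replicates 1, 2 and 3. These shares include the 32 members, which reach 5 FPKM by the rule. The 6278 also include 4513 genes near silent in both genotypes, so these shares are no independent background.

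The silence in control leaves was read in a left-out library too, but against a different condition. The rule limits a mean over libraries to 0.1 FPKM, and here 1 library had to meet that limit. Members with 0.29 FPKM in control replicate 1 do not meet it, so these counts are not comparable with those of transgenic libraries. Without control replicate 1 the rule picked 47 genes, of which 22 were at or under 0.1 FPKM in that library and 42 were under 1 FPKM. Without replicate 2 it picked 37, of which 24 were at or under 0.1 and 32 under 1 FPKM. Without replicate 3 it picked 39, of which 22 were at or under 0.1 and all 39 under 1 FPKM. Nuclear genes with at least 5 FPKM in each transgenic library numbered 14222. Of them 2.13%, 2.47% and 2.45% were under 1 FPKM in control replicates 1, 2 and 3. These shares include the 32 members. They were taken without asking for silence in the other control libraries, so they are no background for genes picked by that silence. Exceptions were present, as 1 gene picked without control replicate 2 had 8.00 FPKM in it, and 1 picked without control replicate 1 had 2.62 FPKM there.

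**Figure D4:**
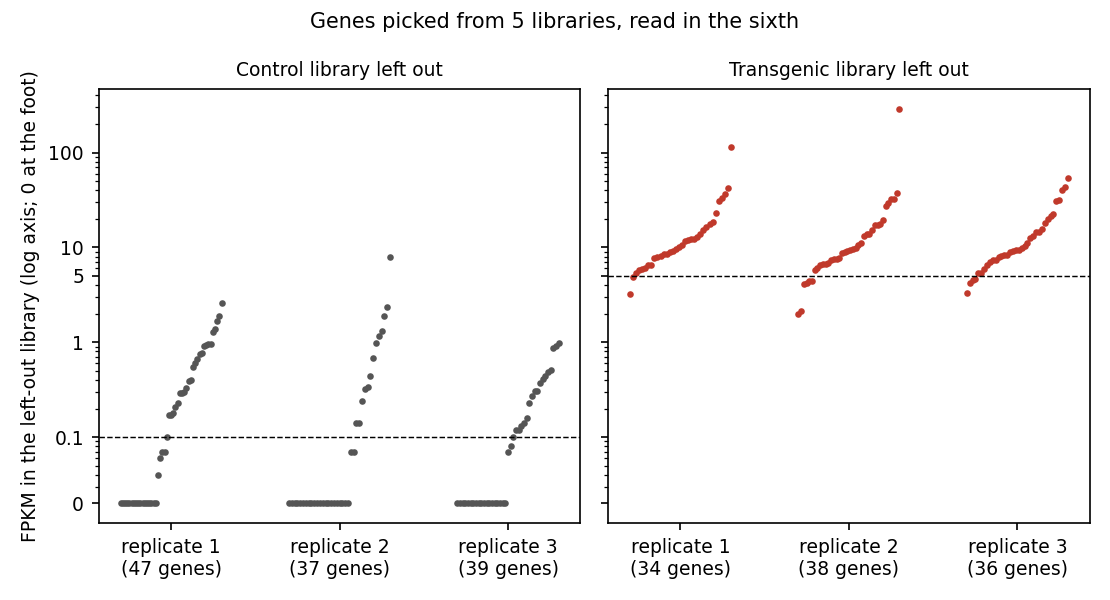
FPKM (log axis, values listed at 0 at the foot) in the library left out of the choice, for genes picked by the rule from the other 5 libraries. In the left panel a control library was left out, and 42 of 47, 32 of 37 and 39 of 39 genes were under 1 FPKM. In the right panel a transgenic library was left out, and 32 of 34, 32 of 38 and 32 of 36 genes reached 5 FPKM. The 32 are the members by definition. Dashed lines mark 0.1 and 5 FPKM.

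The set had no sharp edge. Just inside the lower threshold of transgenic leaves stood the member ranked 31, with a lowest library at 5.37 FPKM, and just outside stood a gene with 4.85, 5.10 and 5.12 FPKM and control values of 0.08, 0.08 and 0.10 FPKM. A further 9 near-silent genes, that gene included, had their lowest transgenic library between 4 and 5 FPKM, whereas 4 members had theirs between 5 and 6 FPKM. At the upper threshold of control leaves, the members ranked 7 and 22 had a mean of 0.0967 FPKM, all of it from 0.29 FPKM in replicate 1. The nearest gene outside had a mean of 0.103 FPKM, all of it from 0.31 FPKM in replicate 3. Between 0.1 and 0.15 FPKM lay 12 genes, that one included, that met the transgenic threshold.

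Among the 6278 nuclear genes near silent in control leaves, the 32 members made up 0.510%. Most of the near-silent genes were near silent in both genotypes, since 4513 (71.9%) also had a mean of 0.1 FPKM or less in transgenic leaves. Another 1460 (23.3%) had a transgenic mean above 0.1 and below 1 FPKM, and 305 (4.86%) had a mean of 1 FPKM or more. At least 1 FPKM in each transgenic library was reached by 192 genes. The members were also a small part of the genes expressed in transgenic leaves, 0.225% of the 14222 with at least 5 FPKM in each library. None of 251 plastid and mitochondrial features met the thresholds of the rule.

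With the genotypes exchanged, the rule found 57 nuclear genes near silent in transgenic leaves, 0.388% of the 14694 with at least 5 FPKM in each control library. Their levels in control leaves had a median of 13.1 FPKM and a highest value of 129 FPKM, compared with 10.8 and 153 FPKM for the members in transgenic leaves. Over 25 pairs of thresholds the set near silent in transgenic leaves was the larger in 22 and the set near silent in control leaves in 3. With exact zeros and at least 1 FPKM in each library of the other genotype, 95 genes were silent in control and 69 in transgenic leaves. With exact zeros and at least 10 FPKM the numbers were 3 and 11. Median-of-ratios scaling, which centres the libraries on the typical gene, brought the sets to 37 and 46.

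The spacing of the members' ID numbers is given as a description, with no count for randomly drawn IDs beside it. No pair of members had consecutive numbers, the closest pair was 70 numbers apart, and 2 pairs lay within 100. Among the 57 genes of the exchanged rule 1 pair was consecutive. Of the 64 IDs listed next in number to a member, 14 (21.9%) had a mean control FPKM of 0.1 or less, where 18.6% of all nuclear IDs did. Of those 64, 42 reached a mean of 1 FPKM over the libraries. Their median difference on the log2(FPKM + 1) scale was -0.08, beside -0.31 over all such nuclear genes, and 12 of them (28.6%) were higher by at least 1 in transgenic leaves, beside 17.2%. Positions in the genome were not analysed here, and whether IDs next in number are neighbours on a chromosome was not examined.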

How the data were processed

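RNA sequencing libraries were made from 1.3 µg of total leaf RNA with a SMARTER mRNA kit, per the labels' protocols, in 3 control and 3 transgenic samples. The authors deposited 1 table of FPKM per library, rounded to 2 decimals, per the file headers and values. Aligner, counter, annotation and strand setting were not given in the sources used here. Builds named in the submitters' processing notes are GRCm38 and mm10, which are mouse builds, so no build was taken as known and no coordinates or sequences are given. Overlapping genes and near-identical copies may share reads in these values.

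Groups came from the genotype label. The members and all lists were chosen with earlier results of these data known. The named genes are the 2 members with the highest mean FPKM over the transgenic libraries, a rule set for the case that the IDs had no match; other members were picked out by their values. Product classes and marker lists could not be used without names. Features averaging at least 1 FPKM were compared on log2(FPKM + 1) with limma 3.58.1 in R 4.3.3 (eBayes with trend, two-sided, Benjamini-Hochberg, threshold 0.05). The fit was also run on simulated data of independent values in which few features were changed. Many features differed in the real data, so that run does not give the error rate here. Other values were computed in Python 3.11.15 with pandas 2.3.3. Relative depth was read from ratios between libraries of values of 0.3 to 1.5 FPKM of the same gene. Only ratios within 0.3 of 0 on the log2 scale were searched, so a larger difference in depth could not be found. Depth in fragments is unknown, and intervals for counting error could not be set.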

Additional observations from a re-analysis of the deposited data

How the results depend on the processing

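The number of members followed its thresholds. It was 32 as defined, 21 with a control mean of 0.05 FPKM or less, 59 with 0.2 FPKM or less and 12 with exact zeros in all control libraries. With at least 2 FPKM in each transgenic library it was 98, and with at least 10 FPKM it was 12. The 57 genes of the exchanged rule became 31, 91, 18, 128 and 30 under the same changes. Scaling each library to a total of 1000000 gave 29 and 55 genes, with 27 of the 32 members kept, and median-of-ratios scaling gave 37 and 46, with all 32 kept. Leaving out 1 library gave 34 to 47 genes for the members' rule and 56 to 66 for the exchanged one. Without control replicates 1, 2 and 3 in turn, 28, 27 and 28 of the 32 members were kept. Without any 1 transgenic library all 32 were kept. All 32 members were called higher under each fit except with a minimum mean FPKM of 5, where fewer could be tested (19 of 19 called). Over all features 5996 were higher and 10199 lower; with the replicate number as a block 5935 and 10087 were, and with 1 library left out 5358 to 5988 and 9593 to 9998. Deviations of same-numbered libraries had correlations of 0.006, -0.001 and 0.015, and the samples share only a number. Median-of-ratios scaling moved the balance to 7986 higher and 7533 lower, and the median of all tested features from -0.31 to 0.04. The members' share of FPKM, 0.0479% ± 0.00972, was 0.0355% ± 0.000330 without the first member, an alternative chosen after seeing the data.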
